A study of Homo sapiens with 14 samples.

Results

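The 8 genes described here, DNM1L, FIS1, MFF, MIEF1, MIEF2, MFN1, MFN2 and OPA1, encode the core machinery of mitochondrial fission and fusion and were taken by name from the 20033 protein-coding genes of GENCODE. A peak was assigned to a promoter when the middle of the peak lay no more than 2 kb before or 1 kb after any annotated transcription start site (TSS) of the gene, and the remaining peaks inside a gene were counted as gene body peaks. By these rules the 8 genes had 17 peaks, 8 in untreated cells and 9 after dTAG-V1, which merged into 10 regions.

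HEK293T cells, an established line from human embryonic kidney, carried ZNF143 fused to FKBP12F36V in 1 clone, HEK_CloneZD29, which both groups share. The FKBP12F36V tag lets the small molecule dTAG-V1 recruit an E3 ubiquitin ligase to the fusion protein. The Proteintech antibody to ZNF143 was used for ChIP-seq in 4 untreated samples and in 4 samples given 0.5 µM dTAG-V1 during 30 min. The other 6 of the 14 samples of the series, 3 untreated and 3 treated CTCF samples, were not analysed here.

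Mitochondria divide when DNM1L, a dynamin-related GTPase of the cytosol, is recruited to the outer membrane, assembles around the organelle and constricts it. Fusion runs the other way, through the mitofusins MFN1 and MFN2 on the outer membrane and through OPA1 on the inner membrane. ZNF143 is a zinc-finger activator that binds promoters at the Staf binding site (SBS), of which SBS1 is a shorter form and SBS2 a form that begins with the letters ACTACA. CTCF is a zinc-finger protein best known for chromatin loops and insulation. A polyclonal antibody can recognise more than 1 protein, so which protein lay under a given peak cannot be told apart from a list of peaks.

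One list of peaks was deposited per condition, with 20429 peaks untreated and 35287 after dTAG-V1. There were therefore no values per replicate, and no comparison could be tested against the spread between samples. Read depth is unknown, so that the absence of a peak says only that none was called. Each peak has a fold enrichment, the signal at the summit over the local background, and a −log10 q-value, both on the scale of its own list. Values are set side by side and not compared between lists. For the same reason a rank is given within a list by −log10 q-value, with rank 1 the strongest, and it moves also when the other peaks of the list do. The deposited −log10 q-values start at 2.01 in both lists. The promoter peaks of protein-coding genes numbered 7702 untreated, with a median fold enrichment of 4.35, and 10296 after dTAG-V1, with a median of 3.24.

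The bases under the summits are shown first, from hg38, because the motif hits described further on lie in them, 5′ to 3′ on the strand of each gene. In the first 3 lines, taken around the untreated summit, capitals mark hits of the SBS1 or SBS2 matrix. The DNM1L and MFN2 lines are shortened where an annotated 5′ untranslated region begins or after the hit that reaches into it. The DNM1L line covers chr12:32679127-32679199 (plus strand), the FIS1 line chr7:101244763-101244863 (minus strand) and the MFN2 line chr1:11980139-11980193 (plus strand).
DNM1L: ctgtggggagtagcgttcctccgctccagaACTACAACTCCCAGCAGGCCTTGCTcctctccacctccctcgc
FIS1: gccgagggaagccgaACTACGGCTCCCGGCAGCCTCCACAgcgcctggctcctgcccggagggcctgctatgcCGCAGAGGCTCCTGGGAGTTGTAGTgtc
MFN2: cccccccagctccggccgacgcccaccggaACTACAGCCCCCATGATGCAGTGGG
The stretches of DNM1L and MFN2 each show 1 site that opens with ACTACA. FIS1 shows a pair that face each other, the second written here on the opposite strand.

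The next lines show weaker regions, both on the plus strand and around the dTAG-V1 summit. Capitals mark a hit of the CTCF matrix in MIEF2, chr17:18260450-18260550, and in OPA1 intron 27, chr3:193665533-193665633. The CTCF hit of MIEF2 was 24 bp from that summit and 64 bp from the untreated one. The peaks of MFN1 and OPA1 intron 1 had no hit of any matrix.
MIEF2: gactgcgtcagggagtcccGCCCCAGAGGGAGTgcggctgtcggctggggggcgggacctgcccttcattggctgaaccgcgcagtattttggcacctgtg
OPA1 intron 27: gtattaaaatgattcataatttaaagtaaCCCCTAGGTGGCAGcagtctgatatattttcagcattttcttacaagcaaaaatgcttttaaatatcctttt
For MFF and MIEF1 only a site is shown. The part of their summit windows outside annotated 5′ untranslated regions was too short or held no hit. The MFF site runs past the end of its summit window. The middle of the MIEF1 site is 22 bp downstream of the canonical TSS. The strongest hit of MFF was an SBS2 hit at chr2:227325239-227325259 (plus strand), and the hit nearest to the MIEF1 summit an SBS1 hit at chr22:39502303-39502320 (plus strand).
MFF: GCTACGGCTCCCAGAAGGGGC
MIEF1: CTCCCTTCAGCCCCTTCG

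In untreated cells, 6 of the 8 genes had a promoter peak, compared with 40.4% of all protein-coding genes. These were DNM1L, all 4 of its outer-membrane receptors and adaptors, and MFN2. After dTAG-V1 all 8 had one, against 48.1% of all genes. The same peak was in both lists for 6 genes, against 35.5% of all. A promoter peak in the dTAG-V1 list only was seen for 2 genes, MFN1 and OPA1, against 11.0% of all. The OPA1 peak counted through 1 of 32 transcripts and lay 72463 bp from the canonical TSS. The MFN1 peak stood at 93.8% of its list, counted from the strongest peak. According to the methods, untreated peaks were kept when found in each replicate and dTAG-V1 peaks when found in any, which cannot be checked here. None of the 8 lacked a promoter peak in both lists, whereas 48.5% of all genes did. The counts describe 8 genes and were not tested.

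At the top 10% of each list, a cutoff added after seeing the data, the peaks were split into a strong and a weak set. Untreated, the upstream FIS1 peak (8.68), MIEF2 (5.77) and MFF (4.51) of the weak set had fold enrichments above the promoter median of 4.35. After dTAG-V1, upstream FIS1 and MFF were above the median of 3.24, and MIEF2, MFN1 and OPA1 below it. A promoter peak in the top 10% of the untreated list was present at 4 genes, DNM1L, FIS1, MIEF1 and MFN2, against 10.0% of all protein-coding genes. The same 4 genes were in the top 10% after dTAG-V1, against 13.4% of all. No other promoter peak of the 8 genes ranked better than the strongest 19.6% of its list. The plot of shares sets the 8 genes beside all genes.

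**Figure D1:**
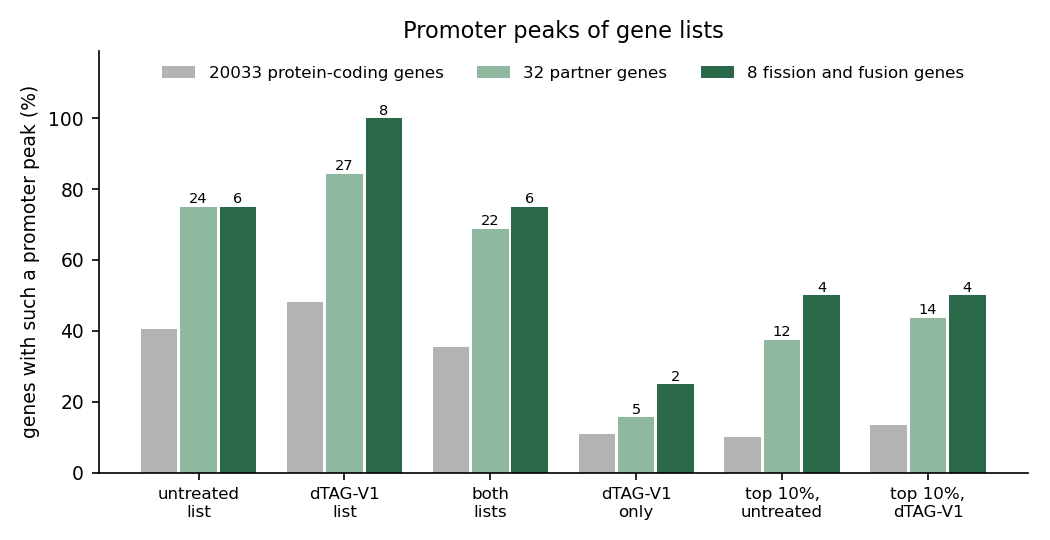
Share of genes (%, vertical axis) with each kind of promoter peak, for all 20033 protein-coding genes (grey), 32 partner genes of mitochondrial dynamics (light green) and the 8 fission and fusion genes (dark green), with the number of genes above the bars of the 2 short lists. The dark bars stand at 6, 8, 6, 2, 4 and 4 genes of 8.

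DNM1L (ENSG00000087470, chr12:32679200-32745650, plus strand), the GTPase that drives fission, had the highest-ranking untreated peak of the 8 genes. The peak at chr12:32678855-32679483 had a fold enrichment of 35.9 and a −log10 q-value of 8605.9 and ranked 317 in the untreated list. At chr12:32678856-32679532, the peak after dTAG-V1 had a fold enrichment of 31 and a −log10 q-value of 3179.9 and ranked 281 in its list. DNM1L was thus within the strongest 1.55% of untreated peaks and 0.796% of dTAG-V1 peaks. The untreated summit lay 124 bp upstream of the canonical TSS, and both peaks fell into the promoter windows of 38 of the 44 annotated transcripts.

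FIS1 (ENSG00000214253, chr7:101239458-101252316, minus strand), an outer-membrane adaptor that can bind DNM1L, had a peak at each of 2 groups of start sites. The strong one, chr7:101244393-101245180 in untreated cells, had a fold enrichment of 35.2, a −log10 q-value of 8187.8 and rank 346. In the dTAG-V1 list it lay at chr7:101244341-101245188, with a fold enrichment of 25.3, a −log10 q-value of 1257.4 and rank 822. Its untreated summit was in intron 1 of the canonical transcript, 268 bp downstream of the TSS.

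The other FIS1 peak fell into the promoter windows of 3 transcripts that start upstream. Untreated, it spanned chr7:101252044-101252763 at a fold enrichment of 8.68 and rank 4026. After dTAG-V1, it spanned chr7:101252056-101252806 at a fold enrichment of 4.76 and rank 6901. Its centre was 7323 bp upstream of the canonical TSS in the untreated list. Together the FIS1 peaks were in the windows of 7 of 9 transcripts.

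MFF (ENSG00000168958, chr2:227325151-227357833, plus strand), the main tail-anchored receptor of DNM1L, belonged to the weak set in both lists. The untreated peak, chr2:227324826-227325286, had a fold enrichment of 4.51, a −log10 q-value of 21.248 and rank 8533. The dTAG-V1 peak, chr2:227324974-227325289, had a fold enrichment of 3.73, a −log10 q-value of 13.36 and rank 15180. Both lay close to the middle of their lists, at 41.8% and 43%. They were in the windows of 25 of the 30 transcripts of MFF.

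The paralogous receptors MIEF1 (ENSG00000100335) and MIEF2 (ENSG00000177427), which bind DNM1L at the outer membrane, stood apart from each other. MIEF1 had an untreated peak at chr22:39502163-39502602 with a fold enrichment of 25.7 and rank 1649. Its dTAG-V1 peak at chr22:39502091-39502537 had a fold enrichment of 11.4 and rank 1816. The untreated summit was in exon 1, 38 bp into the canonical transcript. MIEF1 was therefore in the top 10% of both lists.

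The untreated peak of MIEF2, chr17:18260357-18260708, had a fold enrichment of 5.77, a −log10 q-value of 35.267 and rank 6417. The dTAG-V1 peak, chr17:18260342-18260646, had a fold enrichment of 3.05, a −log10 q-value of 7.9124 and rank 22939. MIEF2 went from the strongest 31.4% of the untreated list to the strongest 65% of the dTAG-V1 list. All 9 transcripts of MIEF2 had the peak in their window.

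Among the fusion genes, MFN2 (ENSG00000116688, chr1:11980181-12015211, plus strand) alone had an untreated promoter peak. That peak, chr1:11979965-11980530, had a fold enrichment of 27.8, a −log10 q-value of 1882.9 and rank 1369. The dTAG-V1 peak, chr1:11979902-11980514, had a fold enrichment of 31, a −log10 q-value of 1715.6 and rank 628. The peak was within the strongest 6.7% untreated and the strongest 1.78% after dTAG-V1. It was in the windows of 27 of the 33 transcripts, 255 bp upstream of the canonical TSS at its untreated summit.

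MFN1 (ENSG00000171109, chr3:179347709-179394936, plus strand), the other mitofusin, had no peak in the untreated list, where the nearest peak was 179464 bp from the canonical TSS. The dTAG-V1 list had a weak peak at chr3:179346991-179347501, with a fold enrichment of 2.37, a −log10 q-value of 3.4936 and rank 33112, its centre 463 bp upstream of the TSS. It stood at 93.8% of the dTAG-V1 list, counted from the strongest peak. The letters under its summit recur in the genome: of 77 overlapping 25-mers in the 101-base window, 40 occurred more than once in hg38, the commonest 23218 times.

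OPA1 (ENSG00000198836, chr3:193593144-193697811, plus strand), the GTPase of the inner membrane, had no peak at its canonical TSS in either list. In untreated cells a gene body peak lay in intron 1 at chr3:193594546-193594765, 1448 bp downstream of that TSS, with a fold enrichment of 3.65 and rank 11393. After dTAG-V1 the only peak was in intron 27 at chr3:193665362-193665979, with a fold enrichment of 2.98, a −log10 q-value of 7.4201 and rank 23771. It counted as a promoter peak through 1 of 32 transcripts, whose start is 1505 bp downstream, and it was 72463 bp from the canonical TSS. In the intron 1 window 58 of 77 25-mers were repeated in hg38, up to 658 times. The intron 27 window and those of the other 6 genes held single-copy 25-mers throughout.

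The plot of ranks shows these values for all 10 regions. Between the lists, 7 of the regions were shared, all at promoters. In the whole series, 14794 of 40687 merged regions were shared. The summits of the 7 regions moved by 1 bp in DNM1L and MFN2 and 2 bp in MIEF1. They moved by 5 and 11 bp in FIS1 and 40 bp in MFF and MIEF2. Over 6541 shared promoter pairs of peaks the median shift was 28 bp. The 4 strong promoters thus kept their summits to within 5 bp.

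**Figure D2:**
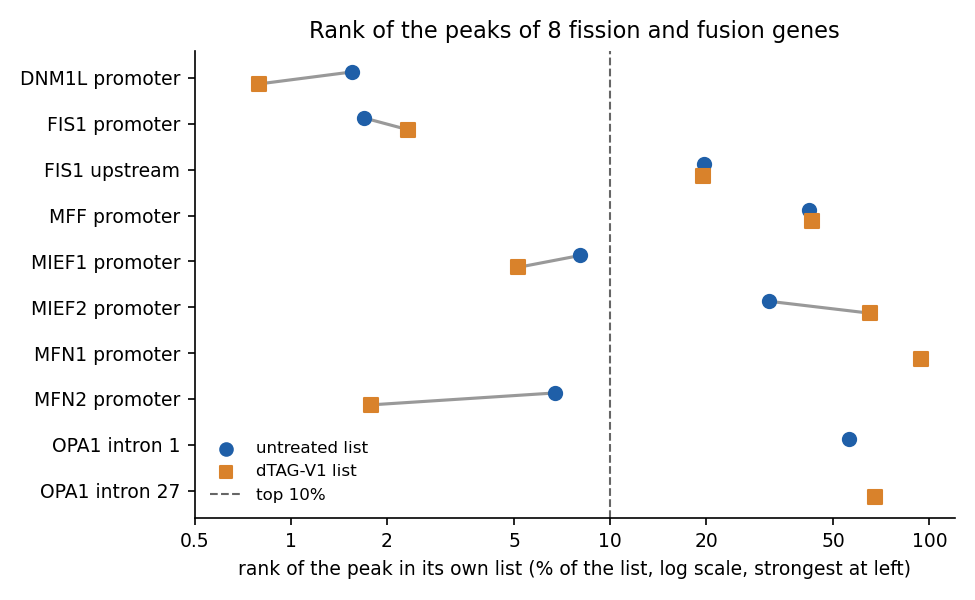
Rank of each peak within its own list as a percentage of that list (horizontal log axis, strongest at the left), with circles for untreated, squares for dTAG-V1 and a grey line joining peaks shared between lists. The promoters of DNM1L, FIS1, MIEF1 and MFN2 sit left of the dashed line at 10% in both lists, and MIEF2 moves from 31.4% to 65%.

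Because the dTAG-V1 list is longer, ranks were also taken among the 14794 regions present in both. On this scale DNM1L went from 317 untreated to 281 after dTAG-V1, and MFN2 from 1369 to 628. FIS1 went from 346 to 822 at the strong peak and from 3565 to 5860 at the upstream one. MIEF1 changed from 1648 to 1813, MFF from 6522 to 9566 and MIEF2 from 5092 to 12390. Hence 2 of the 7 regions took a better rank and 5 a lower one, where 58.2% of 6367 shared promoter regions ranked lower with dTAG-V1. No error can be attached to these ranks.

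SBS hits were searched with matrices of 18 letters (SBS1) and 21 letters (SBS2) at p 5e-05 per position on both strands, and a matrix score is the log2 odds over the genome's base composition. SBS1 and SBS2 share their core, so that hits of the pair often overlap. A promoter peak with an SBS hit was present at 5 genes in the untreated list, DNM1L, FIS1, MFF, MIEF1 and MFN2, against 32.9% of all protein-coding genes. The same 5 genes had one after dTAG-V1, against 36.2% of all. Counted by peak, 6 of 7 untreated promoter peaks had a hit, close to the 76.6% of all untreated promoter peaks. Hits were also common in promoters taken without regard to peaks. Of 15842 RefSeq promoters of 300 bases (defined below), 57.3% had an SBS1 hit at p 5e-05 and 31.2% at p 1e-05. OPA1, whose peaks had no SBS hit, was among them at p 5e-05. For SBS2 the shares were 28.6% and 11.2%. The presence of an SBS1 hit at p 5e-05 alone therefore says little about a peak. The hits in the peaks differed in strength and in their distance from the summit, as follows.

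The SBS2 hit printed above for DNM1L scored 29.82, and 0.714% of the 7702 untreated promoter peaks held a hit as high. Its middle was 10 bp from the untreated summit. A weaker SBS2 hit on the opposite strand, with a score of 12.28, lay 54 bp from the summit. Outside the printed stretch, an SBS1 hit of score 20.58 on the opposite strand lay 34 bp from the summit. DNM1L was the only member whose RefSeq promoter, 250 bases before to 50 after the start (build GRCh38.p14), held the letters ACTACA on either strand, which 8.51% of 15842 promoters did. The SBS2 hit of MFN2 and the SBS2 hit of score 27.61 at FIS1 also open with ACTACA but lie outside that window.

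The SBS2 hits of the FIS1 pair scored 27.61 at chr7:101244766-101244786 (plus strand) and 22.92 at chr7:101244828-101244848 (minus strand). They were 41 bases apart and flanked the summit at 36 and 26 bp. A score as high as 27.61 was reached in 2.32% of untreated promoter peaks. At least 2 SBS2 hits at p 1e-05 within 100 bp of the summit were found in 5.65% of those peaks, FIS1 and DNM1L among them. The upstream FIS1 peak had only hits between p 1e-05 and 5e-05, with an SBS1 score of 7.62 at 12 bp from the summit.

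The SBS2 hit of MFN2 scored 17.01, 10 bp from the untreated summit, and 15% of untreated promoter peaks had one as high. The hit of MFF scored 13.57, 50 bp from the untreated and 90 bp from the dTAG-V1 summit, and 19.3% reached that score. At MIEF1 the hit nearest to the untreated summit, at 16 bp, was an SBS1 hit scoring 7.50, whereas its SBS1 hits under p 1e-05 lay 141 and 249 bp away, with scores of 13.20 and 12.67. MIEF1 was thus the strong promoter whose best hit was not at the summit. MIEF2, MFN1 and both OPA1 peaks had no SBS hit.

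**Figure D3:**
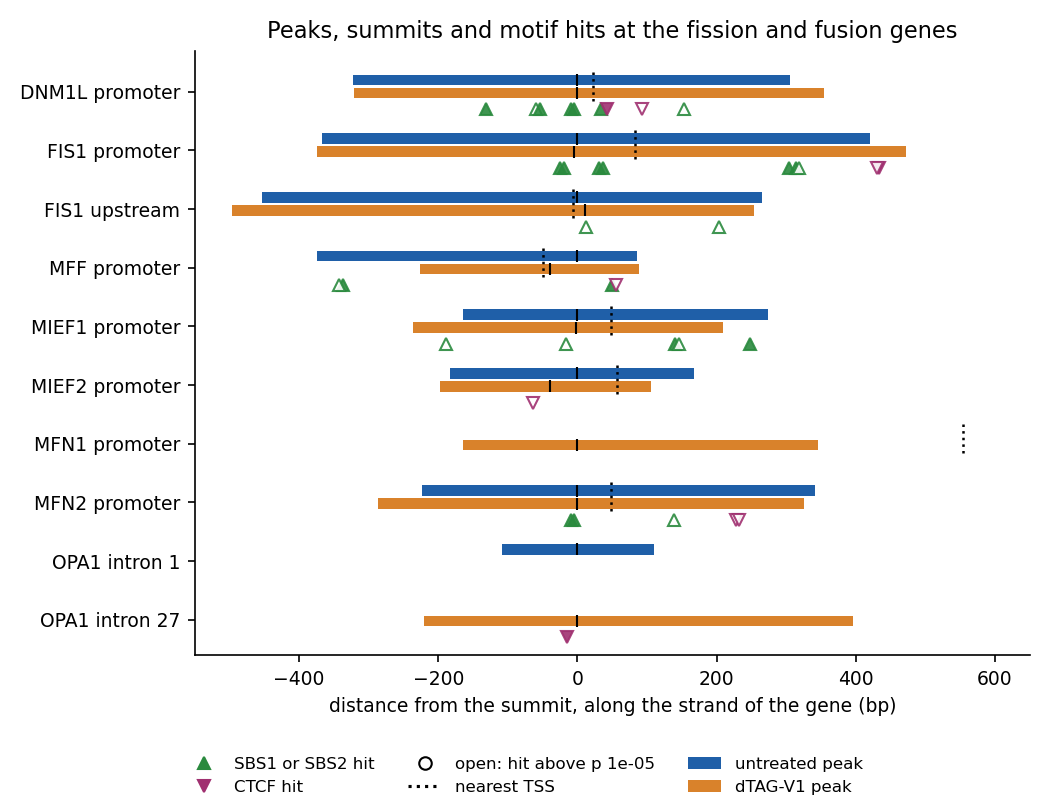
Extent of the untreated (blue) and dTAG-V1 (orange) peaks in bp from the summit (the untreated one where present), drawn along the strand of each gene, with black ticks at summits, dotted lines at the nearest TSS, upward triangles at SBS1 or SBS2 hits and downward triangles at CTCF hits. Filled triangles mark hits under p 1e-05, which lie at the summits of DNM1L and MFN2 and on both sides of the FIS1 summit, and the OPA1 intron 27 peak has its CTCF hit 14 bp from the summit.

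A promoter peak with a CTCF hit was present at 4 genes untreated, DNM1L, MFF, MIEF2 and MFN2, against 16.9% of all protein-coding genes. After dTAG-V1 it was present at 6 genes, with FIS1 and OPA1 added, against 23.4% of all. These shares of all genes include genes with no promoter peak. Counted by peak, 38.1% of all untreated promoter peaks and 42.4% of all dTAG-V1 promoter peaks had a CTCF hit. FIS1 was added because the longer dTAG-V1 peak reaches a hit of score 19.35 at chr7:101244373-101244386, 438 bp from its summit and beyond the end of the untreated peak. At OPA1 the intron 27 hit of score 16.17 lay 14 bp from the summit. DNM1L had a hit of score 16.85 at chr12:32679213-32679226, 43 bp from the untreated summit. This hit overlapped the SBS1 hit of score 20.58 on the opposite strand. The hits of MFF, MIEF2 and MFN2 scored 6.18, 5.53 and up to 10.23 and did not reach p 1e-05, and that of MFF overlapped its SBS2 hit.

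Of the other short motifs searched on both strands in the RefSeq promoters, the ETS-type letters CCGGAAGT were found in FIS1, MIEF1 and MFN1 and in 6.19% of 15842 promoters. The letters GCATGCGC, known from sites of the mitochondrial activator NRF1, were found in OPA1 and in 4.26%. AAGATGGCG, known from YY1 sites, was in none of the 8 and in 2.74%. The SBS core letters CCCANNATG were in FIS1 and in 4.54%. Within the peaks, these core letters were in the upstream FIS1 peak and the MFN2 peak, and not in the strong FIS1 peak. Over all promoter peaks, the core letters were in 11.9% untreated and 9.33% after dTAG-V1. These are matches of letters and not measured sites.

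Peaks at some members were also promoter peaks of a neighbouring gene. The MFF peak was also a promoter peak of the lncRNA MFF-DT on the opposite strand, with its centre 108 bp downstream of the MFF-DT start in the untreated list and 32 bp downstream in the dTAG-V1 list. The MIEF1 peak was 1848 bp upstream of a start of MIURF, which lies within MIEF1 on the same strand. The MIEF2 peak was 1795 bp upstream of a start of FLII, an actin-binding gelsolin relative. The MFN2 peak was also 121 bp upstream of an unnamed lncRNA, ENSG00000287384, and the OPA1 intron 1 peak was 1545 bp upstream of ATP13A4 and 1566 bp upstream of the pseudogene EEF1A1P23. DNM1L, FIS1 and MFN1 shared their promoter peaks with no other annotated gene. Which gene a shared peak acts on cannot be told apart.

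As a wider view of the pathway, 32 partner genes were listed, 15 of fission, 10 of fusion and 7 of inner-membrane cristae. An untreated promoter peak was found at 24 (75%), against 40.4% of all protein-coding genes, in 10 fission, 8 fusion and 6 cristae genes. After dTAG-V1 it was found at 27 (84.4%), against 48.1%, in 12, 10 and 5 genes. The 3 partners with none in either list were MTFR1L, MUL1 and MICOS10. A peak in the top 10% was present at 12 untreated (37.5%, against 10.0% of all genes) and 14 after dTAG-V1 (43.8%, against 13.4%).

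The best-ranked partner was PHB1, a prohibitin of the inner membrane that stabilises long OPA1, at 43 untreated and 41 after dTAG-V1 in the respective lists. It was followed by MICOS13 at 92 and 99 and CHCHD3 at 237 and 497, both of the MICOS complex that shapes cristae. CHCHD6, also of MICOS, ranked 453 and 282.

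GDAP1, an outer-membrane protein linked to fission, ranked 499 untreated and 669 after dTAG-V1. DNM2, a dynamin with an assigned role in scission, ranked 615 and 880. MARCHF5, the outer-membrane ubiquitin ligase that acts on DNM1L and its receptors, ranked 873 and 734. IMMT, the core subunit of MICOS, ranked 1606 and 1728. These 8 partners had an SBS hit in the untreated promoter peak, as did 99.2% of the 1587 promoter peaks in the top 10% of that list.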

How the data were processed

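The 8 genes, the partner genes and the motifs were chosen with earlier results of these data known. According to the methods, the authors mapped reads to hg38 with bwa mem 0.7.17-r1188, filtered with SAMtools 1.12, removed duplicates with Picard 2.25.6 and called narrow peaks with MACS2 2.2.6, with no control library named. The methods speak of peaks in each untreated and in any dTAG-V1 replicate, which cannot be checked from 1 list per condition. Peak names in the untreated list read DMSO, whereas the labels, followed here, say untreated. The deposited score is an integer made from the q-value, and the deposited fold enrichment is a ratio over local background. The deposited −log10 q-value is adjusted within its list. Ranks use it. A longer or shorter list changes ranks, and depth is unknown.

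Peaks were matched to GENCODE release 44 and overlapped at a minimum of 1 bp with Python 3.11.15, pandas 2.3.3, numpy 2.4.6 and pysam 0.24.0. The SBS1, SBS2 and CTCF matrices were learned from peaks on odd-numbered autosomes (pseudocount 0.8, 10 rounds, sites at p 1e-06), so peaks on chromosomes 1, 3, 7 and 17 took part. Peak assignment and motif search were tested on simulated data. All 8 genes and all their peaks are named, with 8 of the 10 best-ranked partners that have an untreated promoter peak (the others are not reported here), all partners that lack a promoter peak in both lists (chosen after their values were seen) and genes that share a peak. No test was run between conditions, as no value per replicate exists.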

Additional observations from a re-analysis of the deposited data

How the results depend on the processing

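Each count was repeated under other settings, and 72 of the 78 values over the 8 genes and the partners stayed within 1.5 times the reported count. For counts this small that tolerance is wide. A dTAG-V1 promoter peak was left at 7 of the 8 genes with a −log10 q-value of at least 5, against 43.5% of all genes. It was also left at 7 with centres within 500 bp of a TSS, against 39.1% of all genes. With the canonical transcript alone it was left at 7, against 41.0%. A CTCF hit within 100 bp of the summit was present at 4 genes in place of 6. With a −log10 q-value of at least 10, promoter peaks in the dTAG-V1 list were left at 5 of the 8 genes, without MIEF2, MFN1 and OPA1, while the share of all genes fell from 48.1% to 32.0%. Gene body peaks became 2 with centres within 500 bp of a TSS and 2 with the canonical transcript alone. With hits at p 1e-05, 3 genes had a CTCF hit in a promoter peak of either list in place of 6. With short fixed patterns the count was 3 for CTCF (AGNGGGC) and 2 for SBS (CCCANNATG), in place of 5. Over the settings, the share of all genes with a promoter peak ran from 31.5% to 41.0% untreated, from 32.0% to 49.4% after dTAG-V1 and from 24.9% to 36.2% in both lists. Counts of peaks in the top 10%, added after seeing the data, stayed at 4. The top 10% was always taken from the full list. The cutoffs on the q-value therefore could not change these counts, and their stability there shows nothing. No paired analysis was possible because the replicates of a condition share 1 list of peaks, and for that reason no replicate could be left out.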
